A study of Mus musculus with 8 samples.

Results

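The genes described here are 39 named interferon-response genes of the mouse, among them the guanylate-binding protein genes, taken from a table of 56748 Ensembl gene IDs. They were picked by symbol with earlier results of these libraries known, and fall into 7 sensors and transcription factors, 20 type I interferon effectors, 9 interferon-gamma GTPases and 3 immunoproteasome subunits. The series is bulk RNA sequencing of liver in which 4 libraries labelled miR-93 knockout (KO) are set against 4 labelled wild type (WT). Every animal was fed a high fat-high fructose diet, and the titles give MASLD (metabolic dysfunction-associated steatotic liver disease) and 16 weeks for both genotypes, so no group on ordinary chow enters. The question put by the design is how loss of the microRNA changes hepatic gene expression. The labels used here give neither the strain, sex and age of the animals nor how the allele was made or in which cells it acts, and are silent on whether each library is a separate animal. The p-values therefore measure the spread between these libraries, which may be technical.

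Cells that detect foreign or misplaced nucleic acid release interferons, which bind receptors on the same and on neighbouring cells. Type I interferon acts through the kinases JAK1 and TYK2 to bring a complex that holds STAT2 and IRF9 to interferon-stimulated response elements, and interferon-gamma acts through JAK1 and JAK2 on genes with gamma-activated sites. Both programmes induce antiviral effectors, the guanylate-binding and immunity-related GTPases that attack pathogen vacuoles, and the immunoproteasome that prepares peptides for MHC class I. In liver, hepatocytes, Kupffer cells, endothelial cells and resident lymphocytes can all respond.

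Total counts ran from 9187279 to 10966019 in the KO libraries and from 5085860 to 7451026 in the WT libraries. Mitochondrially encoded transcripts took 8.08% to 15.03% of the counts in KO and 25.4% to 77.8% in WT. The genotypes do not overlap in either measure, so genotype cannot be told apart from RNA composition or depth. WT replicate 4 stood apart, with 77.8% mitochondrial counts, 1131446 counts outside the mitochondrial genome and 14287 genes detected, against 18412 to 20148 genes in the other libraries. Levels are given in CPM, counts scaled to library depth with a factor from the trimmed mean of M-values (TMM). Where a gene has 0 counts, a true count of up to 3 is allowed, which is 0.219 to 0.252 CPM in KO, 0.379 to 0.455 CPM in WT replicates 1 to 3 and 1.69 CPM in WT replicate 4. These limits cover counting error only. Mir93 itself had 0 counts in all 8 libraries, which leaves the genotype labels unchecked by these files. Its mature product is shown because it is the molecule the knockout removes, with the seed (bases 2 to 8, which pair with targets) in capitals, from RefSeq on GRCm38.p6 (chr5:138165574-138165596, minus strand).
miR-93-5p: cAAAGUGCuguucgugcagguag

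Of the 39 genes, 37 passed edgeR's filter on low counts and could be tested. In the edgeR quasi-likelihood test with Benjamini-Hochberg adjustment over 13204 genes, 14 of these 37 fell in KO at an adjusted p under 0.05 and 0 rose. The same test called 10.7% of all genes lower and 10.4% higher. At an unadjusted p under 0.05 in that test, 20 of the 37 were lower and 0 higher. The share of all genes at this unadjusted threshold is not given here. The 10.7% and 10.4% are for the adjusted one and are no measure for it. The median log2 fold change of KO over WT was -0.62 over the 37 genes and -0.006 over all genes tested, and 35 of the 37 had a negative value. Every KO library lay below every WT library for 17 of the 37 genes, and above for 0, where 14.0% of all genes had all KO libraries lower and 16.3% all higher. By group, the test called lower 3 of 7 sensors and transcription factors (median -0.45), 4 of 18 tested type I effectors (median -0.56), 6 of 9 interferon-gamma GTPases (median -0.90) and 1 of 3 immunoproteasome subunits (median -0.37). The guanylate-binding protein gene Gbp11 fell furthest, by 3.83 on the log2 scale, and the effector Ifit1 came next with a fall of 2.40.

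These counts depend on how the libraries are scaled. With scaling by library size alone, which includes the mitochondrial counts, the median of all genes shifted to 0.544. Gbp11 and Ifit1 were the 2 of the 14 still called. Over all genes, lower calls with that scaling dropped too, from 1408 to 124 of 13204 tested. There the group medians were 0.218 for the sensors and transcription factors, 0.013 for the type I effectors, -0.388 for the GTPases and 0.314 for the immunoproteasome, so that 3 of the 4 changed sign. Set against the shift of all genes, the median of the 37 genes was -0.622 with library-size scaling and -0.616 with TMM. Without WT replicate 4, 18 genes were called lower, the 14 and also Isg15, Bst2, Xaf1 and Rtp4. Over all genes, lower calls then went up too, from 1408 of 13204 tested to 2407 of 13777. Each KO library left out in turn gave 9 lower calls, with 728 to 1027 over all genes. Each of WT replicates 1 to 3 left out gave 11 or 12, with 938 to 1384 over all genes. WT replicate 4 was the highest WT library for 19 of the 37 genes and the lowest for 11.

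**Figure D1:**
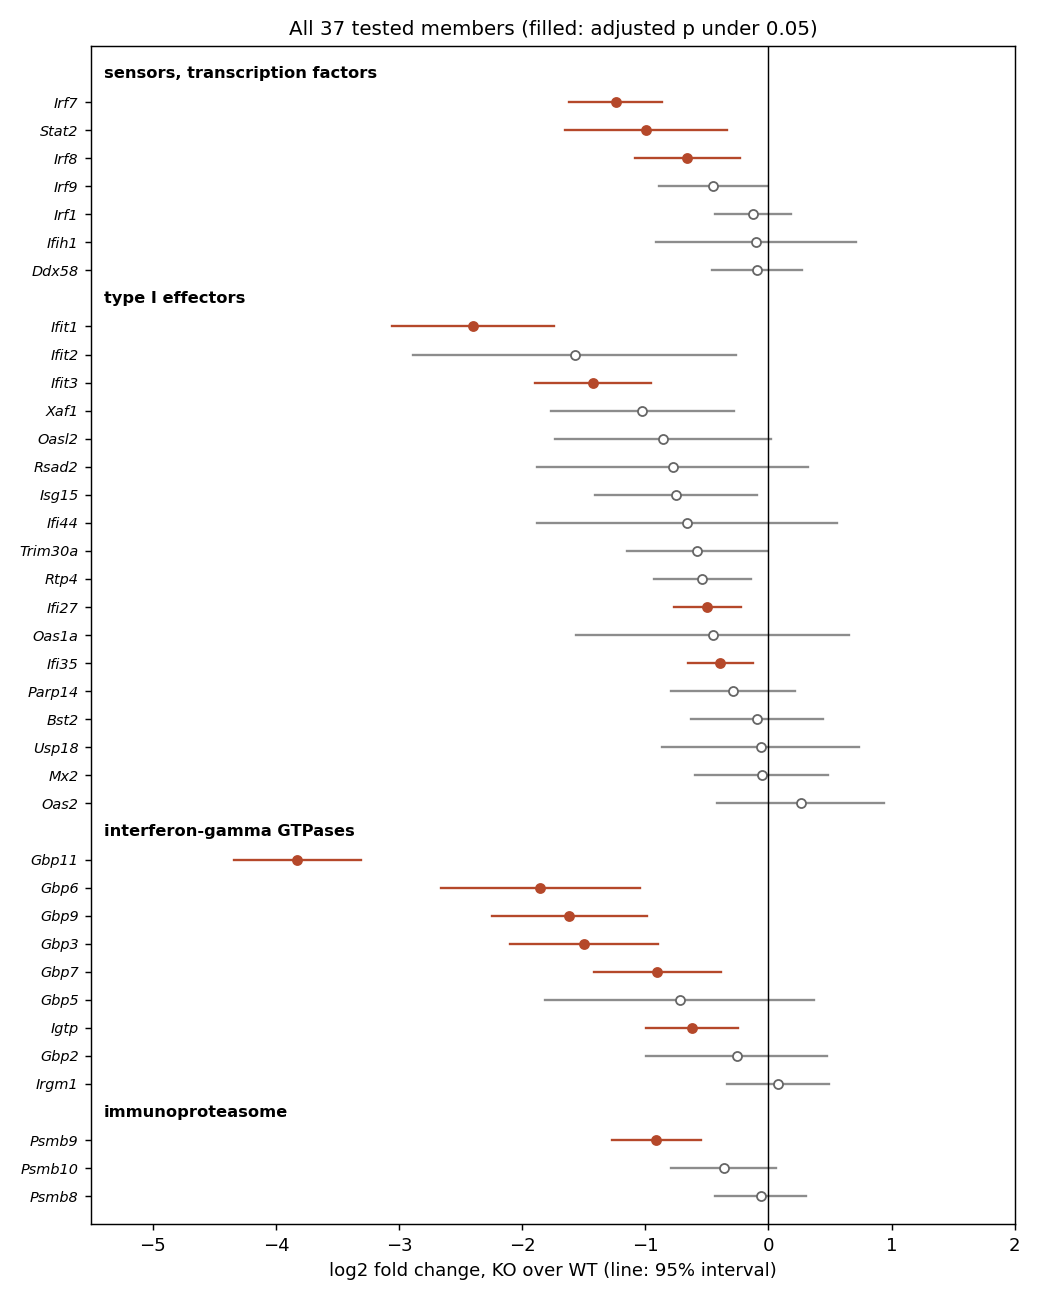
Log2 fold change of KO over WT with its 95% interval (horizontal axis) for the 37 tested genes in 4 groups, from the edgeR fit with TMM scaling over 8 libraries. Filled points are the 14 genes past an adjusted p of 0.05, all left of 0, and open points the others. With library-size scaling Ifi27 and Ifi35 of the 14 turned positive (0.08 and 0.19).

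Promoter sequence was read for the genes with a RefSeq window on GRCm38.p6, which runs from 250 bases before to 50 bases after the start. The core of the interferon-stimulated response element, GAAANNGAA on either strand, was found in the windows of 18 of the 29 genes that have one, against 9.76% of the 27025 genes with a window in all. It was present in 6 of 10 genes called lower and in 11 of 18 not called. All 6 GTPase genes with a window held it, as did 9 of 13 effectors, 3 of 7 sensors and transcription factors and 0 of 3 immunoproteasome genes. Among the genes without a window are Gbp11, Gbp6, Gbp9 and Ifi27, all called lower and so missing from these counts. The core of the gamma-activated site, TTCNNNGAA, was found in 10 of the 29, against 9.55% of all genes with a window. The 160 bases before the start are shown for 5 genes that fell and then for Isg15 and Irgm1, which were not called. This sets the cores of genes that fell beside those of genes that did not pass the test. Every gene shown holds the response element core. Irf7, Irf8, Ifi35 and Psmb9 also fell, but their windows do not hold it. Capitals mark the response element cores, read along the gene's strand, where a core on the other strand appears as TTCNNTTTC and neighbouring cores overlap.
Ifit1 (chr19:34640729-34640888, plus strand): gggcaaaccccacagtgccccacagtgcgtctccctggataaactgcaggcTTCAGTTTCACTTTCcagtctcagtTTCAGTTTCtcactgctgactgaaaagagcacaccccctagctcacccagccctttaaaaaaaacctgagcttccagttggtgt
Ifit3 (chr19:34583369-34583528, plus strand): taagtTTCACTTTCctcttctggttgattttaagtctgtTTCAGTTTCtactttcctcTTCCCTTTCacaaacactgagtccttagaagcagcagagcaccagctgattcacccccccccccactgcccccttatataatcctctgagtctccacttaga
Gbp3 (chr3:142559884-142560043, plus strand): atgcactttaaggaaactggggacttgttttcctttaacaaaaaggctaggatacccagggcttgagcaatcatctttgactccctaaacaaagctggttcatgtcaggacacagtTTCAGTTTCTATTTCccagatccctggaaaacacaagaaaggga
Gbp7 (chr3:142530176-142530335, plus strand): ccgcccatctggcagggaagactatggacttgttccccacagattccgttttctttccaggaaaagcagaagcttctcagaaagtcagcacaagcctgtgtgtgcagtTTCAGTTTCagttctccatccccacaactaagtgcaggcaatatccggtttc
Igtp (chr11:58199396-58199555, plus strand): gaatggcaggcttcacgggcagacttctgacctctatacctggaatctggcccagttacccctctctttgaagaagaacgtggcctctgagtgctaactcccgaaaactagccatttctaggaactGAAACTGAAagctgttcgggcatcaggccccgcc
Isg15 (chr4:156200819-156200978, minus strand): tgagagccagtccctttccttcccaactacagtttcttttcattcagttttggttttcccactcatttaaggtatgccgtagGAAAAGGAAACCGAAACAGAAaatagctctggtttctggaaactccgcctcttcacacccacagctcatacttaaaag
Irgm1 (chr11:48871421-48871580, minus strand): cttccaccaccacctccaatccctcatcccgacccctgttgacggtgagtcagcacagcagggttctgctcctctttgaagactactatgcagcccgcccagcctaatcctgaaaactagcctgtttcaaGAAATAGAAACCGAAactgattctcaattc
Ifit1, Ifit3 and Isg15 each hold 3 cores in this stretch, Gbp3 and Irgm1 hold 2, and Gbp7 and Igtp hold 1. A match describes these letters only.

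Among the sensors and transcription factors, Irf7, Irf8 and Stat2 fell. Irf7, the factor that interferon induces and that in turn drives interferon-alpha genes, read 16.6, 16.2, 17.0 and 12.4 CPM in the KO libraries, against 32.7, 33.3, 34.3 and 50.6 CPM in the WT libraries. All 4 KO libraries, of which replicate 4 was lowest, lay well below the lowest WT library, and the log2 fold change was -1.24 ± 0.17 (SE, adjusted p = 0.000632). Stat2, a subunit of the type I complex, read 136, 96.0, 128 and 103 CPM in KO, against 141, 222, 157 and 409 CPM in WT. The groups did not overlap but came close, and WT replicate 4 was far above the other WT libraries. Its log2 fold change was -0.997 ± 0.30 (adjusted p = 0.0369), and -0.57 and called without WT replicate 4. Irf8, a factor of myeloid and B cells as well as of the interferon-gamma response, read 6.76, 8.58, 6.36 and 7.15 CPM in KO, against 14.3, 9.21, 11.4 and 10.1 CPM in WT, a log2 fold change of -0.66 ± 0.19 (adjusted p = 0.0335).

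The remaining 4 of this group did not pass the test. Irf9, the DNA-binding part of the type I complex, had 30.2 ± 2.64 CPM in KO and 42.6 ± 14.4 CPM in WT (SD, n = 4 each), and its groups did not overlap (log2 fold change -0.45, adjusted p = 0.129, and -0.23 without WT replicate 4, the highest WT library). Irf1, which interferon-gamma induces, and Ddx58 and Ifih1, the cytoplasmic RNA sensors RIG-I and MDA5, had log2 fold changes of -0.12, -0.09 and -0.10. Ifih1 rested on 1 count in WT replicate 4, where it read 0.562 CPM against 12.8 to 15.5 CPM in the other WT libraries. The call of Irf8 was lost when any KO library or WT replicate 1 or 3 was left out (adjusted p up to 0.11), and that of Stat2 without any KO library or WT replicate 2 (up to 0.119). Irf7 stayed called with each of the 8 libraries left out.

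**Figure D2:**
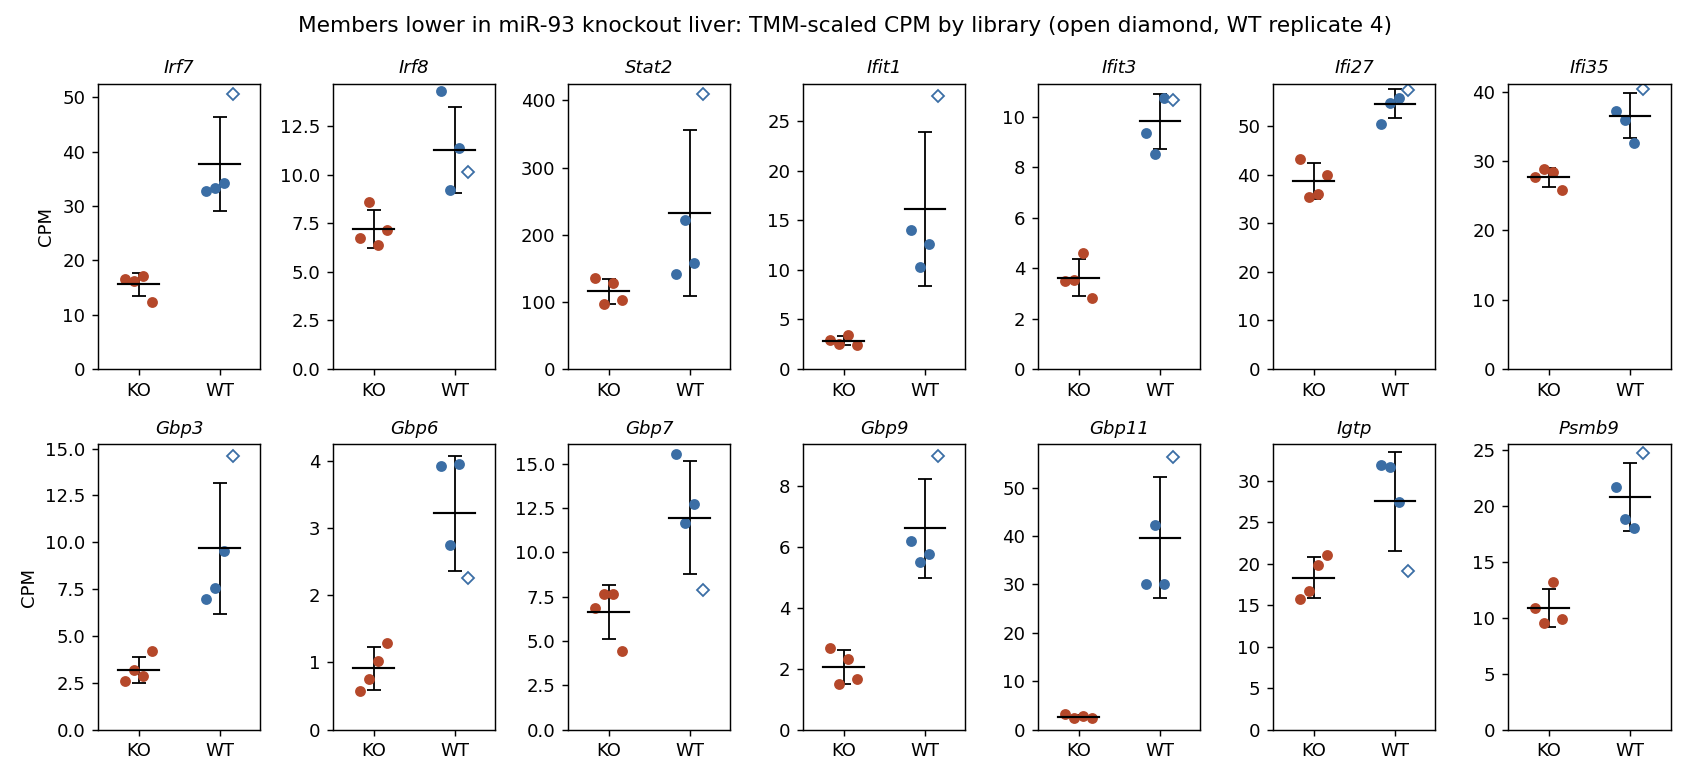
TMM-scaled CPM in each library (vertical axis, from 0) for the 14 genes that fell, KO left of WT in each panel, with the mean and SD as bars (n = 4 each). The groups overlap only for Igtp, where WT replicate 4 (open diamond, 19.1 CPM) lies below 2 KO libraries. With library-size scaling Ifi27 and Ifi35 turned positive.

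Type I effectors were led by the IFIT genes, whose proteins bind viral RNA and block its translation. Ifit1 read 2.93, 2.52, 3.43 and 2.44 CPM in KO, against 14.0, 10.3, 12.6 and 27.6 CPM in WT. The genotypes were far apart, with WT replicate 4 highest, and the log2 fold change was -2.40 ± 0.30 (adjusted p = 0.000294). Ifit3, which stabilises IFIT1 on RNA in human cells, read 3.50, 3.53, 4.60 and 2.82 CPM in KO, against 9.35, 8.52, 10.8 and 10.7 CPM in WT, a log2 fold change of -1.42 ± 0.21 (adjusted p = 0.00105). Both kept their call with each library left out. Ifit2 was less even. It read 1.06, 0.841, 1.10 and 0.533 CPM in KO, against 2.78, 2.20, 0.607 and 7.31 CPM in WT, so that WT replicate 3 sat among the KO libraries, and it did not pass (log2 fold change -1.57 ± 0.60, adjusted p = 0.0832). DESeq2 called Ifit2 over all 8 libraries (-1.70, adjusted p = 0.0471), and edgeR called it without WT replicate 3, at -1.99, while without WT replicate 4 its value was -1.08. Ifit3b, below edgeR's filter over all 8 libraries, read 0.488, 0.673, 0.146 and 0.685 CPM in KO, against 1.01, 2.47, 1.06 and 3.37 CPM in WT, and was called lower by DESeq2 and, without WT replicate 1, by edgeR. Of the 50-base windows of the Ifit3 transcript, 51.2% also occur in Ifit3b, and no source used here says how reads fitting both were counted, so the split between this pair is uncertain.

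The other 2 effectors that fell did so by small amounts. Ifi27, an interferon-induced membrane protein, read 43.2, 35.3, 35.9 and 40.0 CPM in KO, against 50.4, 54.8, 55.8 and 57.4 CPM in WT (log2 fold change -0.50 ± 0.12, adjusted p = 0.016), and by library size alone it was 0.08. Ifi35, a leucine zipper protein that binds the STAT-interacting protein NMI, read 27.7, 28.9, 28.5 and 25.8 CPM in KO, against 37.3, 36.0, 32.6 and 40.5 CPM in WT (log2 fold change -0.39 ± 0.12, adjusted p = 0.0393), and by library size alone it was 0.19. In both genes the libraries of a genotype were close together and the genotypes did not overlap. Leaving out KO replicate 2, 3 or 4 ended the call of Ifi27 (adjusted p up to 0.0671), and leaving out any KO library or WT replicate 1 or 2 ended that of Ifi35 (up to 0.137).

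Classic markers of a type I response were less clear. Isg15, the ubiquitin-like modifier, read 4.64, 5.13, 3.36 and 3.88 CPM in KO, against 9.09, 8.11, 6.98 and 2.25 CPM in WT. WT replicates 1 to 3 were all above KO, while WT replicate 4, with 4 counts, was below it. The log2 fold change was -0.75 ± 0.30 (adjusted p = 0.0962), and -0.92 and called without WT replicate 4, as it was by limma-voom with quality weights over all 8 libraries. Bst2, the tetherin that holds budding virions to the cell, behaved likewise, with 74.8, 77.2, 83.9 and 77.5 CPM in KO, against 103, 91.1, 97.7 and 37.7 CPM in WT. Over all 8 libraries its value was -0.09 ± 0.24, and without WT replicate 4 it was -0.30 and called. Xaf1, which promotes apoptosis, and Rtp4, an interferon-induced chaperone of receptors, missed the threshold at log2 fold changes of -1.03 (adjusted p = 0.0523) and -0.54 (adjusted p = 0.0562), with no overlap between the genotypes. Without WT replicate 4 both were called, at -0.89 for Xaf1 and -0.41 for Rtp4. Xaf1 was also called without KO replicate 4, and Rtp4 without WT replicate 1. Over all 8 libraries Xaf1 was called by DESeq2 (adjusted p = 0.0382), by limma-voom without and with quality weights (0.0303 and 0.012) and by edgeR with mitochondrial genes left out (0.0495), and limma-voom with quality weights also called Rtp4 (0.018).

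The antiviral nucleotide synthetases and the dynamin-like GTPases did not pass the test. Oas1a, Oas2 and Oasl2 had log2 fold changes of -0.45, 0.26 and -0.86. Of the Oas1a windows 57.6% also occur in other genes, mainly Oas1g and Oas1b, so its count is uncertain. Oas2 was 1 of 2 genes in the whole set with a positive value, at 4.50 ± 0.947 CPM in KO and 3.90 ± 1.42 CPM in WT (SD, n = 4 each). Oasl2 was high in WT replicate 4, with 9.56 CPM against 3.19 to 3.71 CPM in the other WT libraries, and without it the value was -0.49. Mx2 was level, at 5.48 ± 1.51 CPM in KO and 5.63 ± 0.662 CPM in WT. Mx1 was below edgeR's filter, at 0.570, 0.337, 0.877 and 1.45 CPM in KO, against 1.89, 1.10, 2.28 and 2.81 CPM in WT. RefSeq annotates both Mx genes as transcribed pseudogenes in the reference strain. Usp18, the protease that removes ISG15 and restrains the type I receptor, had 2.47 ± 0.696 CPM in KO and 2.83 ± 1.22 CPM in WT. Ifi44, Rsad2 (viperin), Parp14 and Trim30a had log2 fold changes of -0.66, -0.78, -0.29 and -0.58, none past the threshold. Ifi44, Oas1a and Rsad2 had 0 counts in WT replicate 4, where that count allows up to 1.69 CPM.

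Interferon-gamma GTPases were the group with the most calls, 6 of 9. Gbp11 read 3.18, 2.36, 2.78 and 2.51 CPM in KO, against 30.2, 42.2, 30.0 and 56.2 CPM in WT. The 4 KO libraries were close together, far below the lowest WT library. Its log2 fold change was -3.83 ± 0.23 (95% interval -4.34 to -3.31, adjusted p = 1.81e-06), with a range of -3.94 to -3.64 over the 8 single omissions. Per kilobase of exon, Gbp11 stood at 14.7 CPM in WT, close to Igtp (13.6) at the top of the 9 GTPases, but at 1.00 CPM in KO, where Igtp stood at 9.07. RefSeq annotates Gbp11 as a transcribed pseudogene in the reference strain.

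Other guanylate-binding protein genes that fell lie beside Gbp11 on chromosome 5 or in the cluster on chromosome 3. On chromosome 5, Gbp9 read 2.69, 1.51, 2.34 and 1.67 CPM in KO, against 6.19, 5.50, 5.76 and 9.0 CPM in WT (log2 fold change -1.62 ± 0.29, adjusted p = 0.00279). Gbp6 read 0.570, 0.757, 1.02 and 1.29 CPM in KO, against 3.92, 2.75, 3.94 and 2.25 CPM in WT (log2 fold change -1.85 ± 0.37, adjusted p = 0.00542). Both genes separated the genotypes in every library at levels of a few CPM, and Gbp6 rested on 4 counts in WT replicate 4. On chromosome 3, Gbp3 read 2.61, 3.20, 2.85 and 4.19 CPM in KO, against 6.95, 7.56, 9.56 and 14.6 CPM in WT (log2 fold change -1.5 ± 0.27, adjusted p = 0.00335). Gbp7 read 6.84, 7.66, 7.67 and 4.41 CPM in KO, against 15.5, 11.7, 12.7 and 7.87 CPM in WT (log2 fold change -0.90 ± 0.24, adjusted p = 0.0205). For Gbp7 WT replicate 4 lay just above the KO libraries, and the call was lost without KO replicate 1 or 4 or WT replicate 1 or 3 (adjusted p up to 0.0673). Gbp3, Gbp6, Gbp9 and Gbp11 kept theirs with each library left out.

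Neighbours in the same clusters did not all follow. Gbp2 read 1.22, 2.44, 2.05 and 2.05 CPM in KO, against 2.40, 1.92, 2.43 and 2.81 CPM in WT, with overlap between the genotypes (log2 fold change -0.26 ± 0.33, adjusted p = 0.619). Gbp5, which promotes inflammasome assembly, read 0.977, 0.841, 1.17 and 1.37 CPM in KO, against 1.39, 0.962, 1.67 and 5.06 CPM in WT (log2 fold change -0.72 ± 0.50, adjusted p = 0.326, and -0.28 without WT replicate 4). Outside the 39 genes, Gbp4 fell, with 2.77, 1.77, 2.63 and 1.75 CPM in KO, against 9.09, 7.56, 9.71 and 7.87 CPM in WT (log2 fold change -1.94 ± 0.24, adjusted p = 0.000301). Gbp8 read 4.72, 3.62, 5.11 and 4.26 CPM in KO, against 7.07, 5.77, 5.46 and 1.69 CPM in WT, where replicate 4 rested on 3 counts (log2 fold change -0.30 ± 0.29, adjusted p = 0.502). Gbp10 and Gbp2b were below edgeR's filter. Gbp10 read 0.326, 0.0841, 0.146 and 0.0761 CPM in KO, against 0.126, 1.24, 0.152 and 0 CPM in WT. Gbp2b read 0.163, 0.673, 0.804 and 0.457 CPM in KO, against 1.14, 1.51, 1.52 and 0 CPM in WT.

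**Figure D3:**
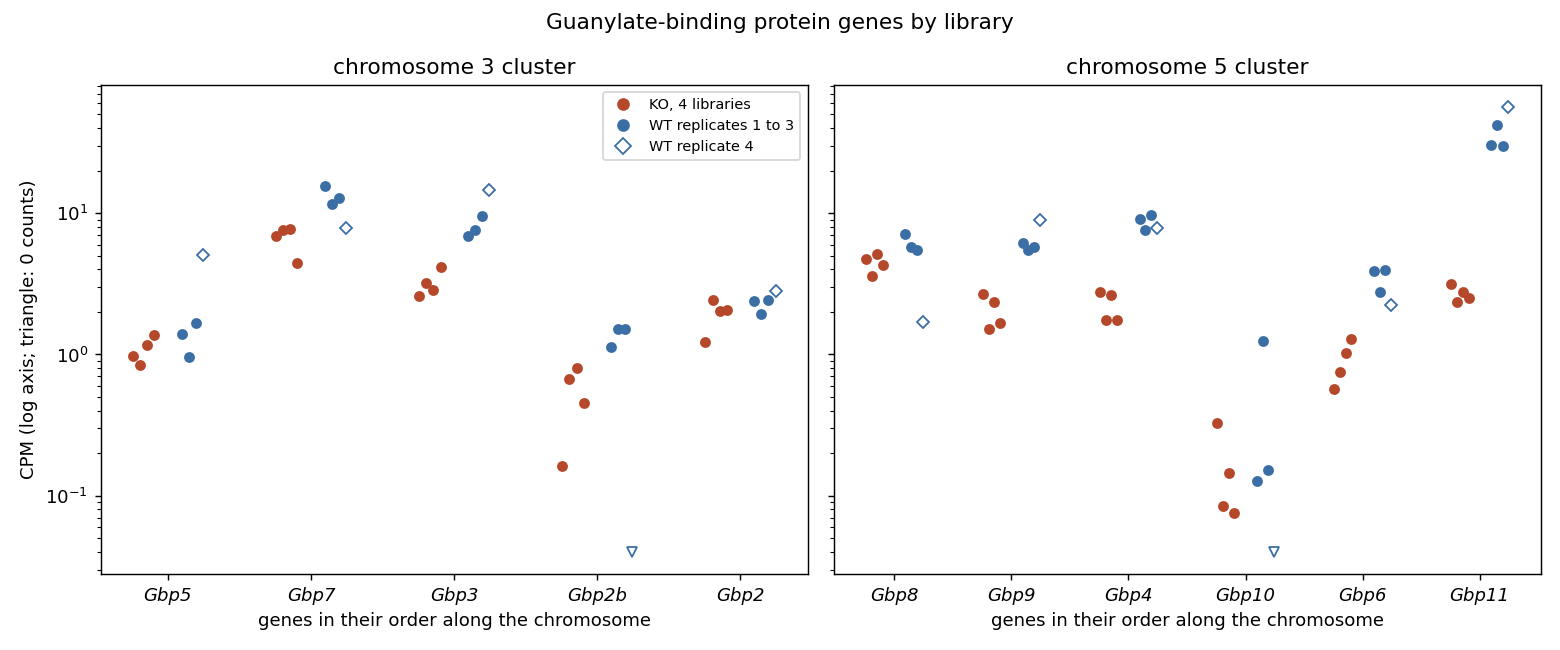
TMM-scaled CPM per library (log vertical axis) for the guanylate-binding protein genes in their order along chromosome 3 (left) and chromosome 5 (right), KO libraries left of WT libraries for each gene. WT replicate 4 is an open diamond, and a triangle marks 0 counts. Gbp11 at the end of the chromosome 5 cluster shows the widest gap. It runs from 2.36 to 3.18 CPM in KO and from 30.0 to 56.2 CPM in WT. The genotypes overlap for Gbp2, Gbp5, Gbp10, Gbp8 and Gbp2b, for the last pair only through WT replicate 4.

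Some of these genes share much of their sequence with another gene, which limits how firmly a count can be given to them. Of the 50-base windows of the longest Gbp6 transcript, 90.2% occur in another gene, mostly the predicted gene Gm43302 and Gbp10, so Gbp6 is uncertain. The share was 82.5% for Gbp10, 21.2% for Gbp8, 19.2% for Gbp11, 12.9% for Gbp7 and 12.8% for Gbp4. It was lower for Gbp9 (9.56%), Gbp3 (4.79%), Gbp2 (2.07%) and Gbp5 (0.9%).

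Igtp (IRGM3) and Irgm1, immunity-related GTPases that police vacuoles and autophagy, differed in their calls. Igtp read 15.8, 16.7, 19.8 and 21.1 CPM in KO, against 32.0, 31.6, 27.5 and 19.1 CPM in WT. WT replicates 1 to 3 lay above all KO libraries and WT replicate 4 among them. The log2 fold change was -0.62 ± 0.17 (adjusted p = 0.025), and the call was lost when any single library other than WT replicate 4 was left out (adjusted p up to 0.0928). The replicate block also ended it (adjusted p = 0.123), as did thinning to equal nuclear depth, where the log2 fold change was -0.35 (adjusted p = 0.316). Irgm1 had 22.0 ± 1.12 CPM in KO and 19.9 ± 6.17 CPM in WT (SD, n = 4 each), with WT replicate 4 at 10.7 CPM and the other WT libraries at 22.1 to 23.7 CPM. Its log2 fold change was 0.08 ± 0.19 (adjusted p = 0.806), and -0.06 without WT replicate 4. Whether Igtp and Irgm1 differ from each other in their response was not tested. Irgm2, outside the 39 genes, was at 0.30 ± 0.33 (adjusted p = 0.547).

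Of the immunoproteasome subunits, which replace the constitutive catalytic subunits after interferon-gamma, Psmb9 fell. It read 10.9, 9.51, 13.2 and 9.89 CPM in KO, against 21.7, 18.8, 18.1 and 24.7 CPM in WT. The genotypes did not overlap, and the log2 fold change was -0.91 ± 0.16 (adjusted p = 0.00312), called with each library left out. Psmb8 had 25.2 ± 2.74 CPM in KO and 26.4 ± 5.26 CPM in WT (log2 fold change -0.06 ± 0.17, adjusted p = 0.821). Psmb10 had 40.2 ± 2.38 CPM in KO and 53.1 ± 17.6 CPM in WT (log2 fold change -0.37 ± 0.19, adjusted p = 0.2), and without WT replicate 4, at 78.7 CPM the highest, the value was -0.14. Psmb9, the peptide transporter gene Tap1 and Psmb8 are neighbours in the MHC class II region. Tap1, outside the 39 genes, fell by 0.62 on the log2 scale (SE 0.15, adjusted p = 0.014), a call lost without KO replicate 2 or 4 (adjusted p up to 0.0556). The activator subunits Psme1 and Psme2 were at -0.18 and -0.24 and did not pass. Of the Psme2 windows 59.3% also occur in other genes, mainly Psme2b and the predicted gene Gm7928, so its count is uncertain.

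Each immunoproteasome subunit was also set against the constitutive subunit it replaces, as a ratio of counts within a library, which does not depend on scaling between libraries. Psmb9 to Psmb6 stood at 0.0779, 0.0803, 0.0910 and 0.0760 in KO, against 0.171, 0.143, 0.141 and 0.484 in WT. Psmb10 to Psmb7 stood at 0.452, 0.399, 0.480 and 0.391 in KO, against 0.656, 0.861, 0.586 and 9.33 in WT, the last from 15 counts of Psmb7. In both ratios every KO library lay below every WT library, and the log2 differences of KO minus WT were -1.32 and -1.63, or -0.90 and -0.69 without WT replicate 4. The exact permutation test (two-sided) gave p = 0.0286 for each, the lowest value possible with 70 assignments of 4 and 4 libraries, and 0.0429 adjusted over 3 ratios. With all libraries thinned to the same nuclear depth the adjusted p of both was 0.0857. Psmb8 to Psmb5 stood at 0.502, 0.576, 0.586 and 0.608 in KO, against 0.613, 0.478, 0.599 and 2.35 in WT. Its difference was -0.50 with an exact permutation p of 0.571, and 0.02 without WT replicate 4. Of the Psmb5 windows 57.1% also occur in other genes, mainly the predicted gene Gm3375 and the pseudogene Psmb5-ps, which adds uncertainty to that ratio. Of the constitutive subunits themselves, Psmb5, Psmb6 and Psmb7 had log2 fold changes of 0.18, 0.27 and 0.85, none past the threshold over all 8 libraries. Psmb7 was higher in every KO library than in any WT library, and it was called higher without WT replicate 4 (0.55, adjusted p = 0.000105) and by limma-voom with quality weights (0.61, adjusted p = 0.00943). Without WT replicate 4, where Psmb10 was at -0.14, most of the difference in the ratio of Psmb10 to Psmb7 lay in Psmb7.

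**Figure D4:**
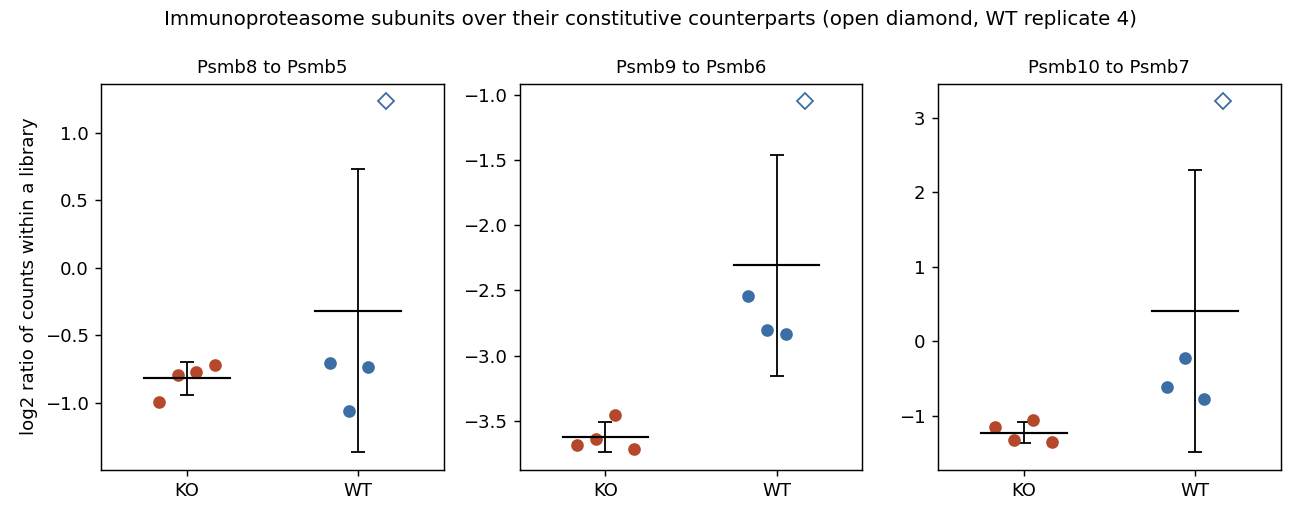
Log2 ratio of counts of each immunoproteasome subunit to its constitutive counterpart (vertical axis) in each library, KO left of WT, with mean and SD bars (n = 4 each). The ratios of Psmb9 to Psmb6 and of Psmb10 to Psmb7 are lower in all 4 KO libraries than in any WT library, and WT replicate 4 (open diamond) is the highest WT library in each panel.

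Upstream of these genes, transcripts of the interferons themselves were at or near 0 counts. Of 21 interferon ligand genes, 18 had 0 counts in all 8 libraries, and interferon-gamma (Ifng) had 2 counts in all. Of 8 tested genes for receptors and kinases, 2 rose in KO and 0 fell, where 10.4% of all genes were called higher and 10.7% lower. Ifnar2, a chain of the type I receptor, read 16.2, 19.7, 18.9 and 18.8 CPM in KO, against 9.98, 6.87, 8.95 and 10.1 CPM in WT. All KO libraries lay above all WT libraries, and the log2 fold change was 1.06 ± 0.17 (adjusted p = 0.00135). Ifngr2, a chain of the interferon-gamma receptor, rose by 0.80 ± 0.24 (adjusted p = 0.0364), a call lost without any KO library or WT replicate 2 or 3 (adjusted p up to 0.118). The partner chains Ifnar1 and Ifngr1 were at 0.21 and 0.01 and did not pass, and neither did the kinases Jak1 (0.22), Jak2 (-0.31) and Tyk2 (-0.47, adjusted p = 0.0716). Tyk2 was called lower without WT replicate 4 (-0.30, adjusted p = 0.0499) or WT replicate 1 (-0.56, adjusted p = 0.0467) and by limma-voom with quality weights (-0.32, adjusted p = 0.0347).

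Among 11 tested inhibitors of interferon signalling, 2 rose and 0 fell. Socs3, which blocks JAK kinases mainly downstream of interleukin-6 family receptors, read 35.2, 29.5, 37.1 and 29.8 CPM in KO, against 8.59, 9.35, 12.1 and 15.7 CPM in WT. Every KO library lay well above the highest WT library, and the log2 fold change was 1.60 ± 0.19 (adjusted p = 0.000177). Ptpn11, the phosphatase SHP2, rose by 0.54 ± 0.16 (adjusted p = 0.0348), a call lost without KO replicates 2, 3 or 4 or WT replicates 2 or 3 (adjusted p up to 0.113). Socs1 was below edgeR's filter, at 0.0814, 0.337, 0.219 and 0.381 CPM in KO, against 1.14, 0.962, 1.06 and 0 CPM in WT. Of 13 tested genes for nucleic acid sensing, the double-stranded RNA receptor Tlr3 fell (-0.86 ± 0.27, adjusted p = 0.0436) and its adaptor Ticam1 rose (0.53 ± 0.17, adjusted p = 0.041). With 1 call each way, this list lay no higher than the shares over all genes (10.7% lower, 10.4% higher). Both calls were lost without any KO library or WT replicate 2 or 3, and that of Ticam1 also without WT replicate 1 (adjusted p up to 0.131).

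Of 47 tested interferon-induced genes outside the 39, 13 fell (27.7%) and 4 rose, with a median log2 fold change of -0.38. Over all genes tested, 10.7% were called lower and 10.4% higher. The share that rose here was thus no higher than over all genes. Ly6e, a membrane protein that restricts coronaviruses, read 51.1, 75.9, 59.3 and 78.5 CPM in KO, against 154, 90.7, 126 and 157 CPM in WT (log2 fold change -0.99 ± 0.20, adjusted p = 0.00644). Samd9l, a translation-repressing restriction factor, fell by 1.11, the nuclear body protein gene Sp110 by 1.32 and Oasl1, which inhibits translation of Irf7 in mice, by 1.11. In the other direction, Ifitm2, a membrane protein that blocks viral fusion, read 65.1, 73.2, 68.1 and 62.4 CPM in KO, against 30.4, 25.0, 30.5 and 23.1 CPM in WT (log2 fold change 1.28 ± 0.14, adjusted p = 9.49e-05). The adjacent genes Parp9 and Dtx3l, whose products form a complex, rose by 0.61 and 0.94 (adjusted p = 0.0111 and 0.0125). Tor3a rose by 1.08 (adjusted p = 0.0484), a call lost when any library but WT replicates 3 and 4 was left out. Of the Ifitm2 windows 48.5% and of the Sp110 windows 43.9% also occur in other genes, mostly predicted ones, so both counts are uncertain.

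Further interferon-gamma targets numbered 15 tested, of which 3 fell and 1 rose. Over all genes tested, 10.7% were called lower and 10.4% higher, so the share that rose here was no higher. The T cell chemoattractant genes Cxcl9 and Cxcl11 fell by 1.78 and 1.32 (SE 0.25 and 0.19, adjusted p = 0.000756 and 0.000905). GENCODE M21 annotates the Cxcl11 transcript as a polymorphic pseudogene, and these data do not say whether it yields a working chemokine. Cxcl9 read 2.20, 2.69, 4.09 and 2.82 CPM in KO, against 13.3, 8.66, 9.56 and 8.43 CPM in WT, and Cxcl11 read 6.68, 4.88, 5.26 and 4.72 CPM in KO, against 11.1, 13.3, 13.8 and 16.9 CPM in WT. Both separated the genotypes in every library. After thinning to equal nuclear depth Cxcl11 was at -0.80 and no longer called (adjusted p = 0.118). The third was Tap1. Serping1, the complement C1 inhibitor, rose instead, with 792, 955, 856 and 934 CPM in KO, against 438, 345, 416 and 536 CPM in WT (log2 fold change 1.03 ± 0.16, adjusted p = 0.0012).

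**Figure D5:**
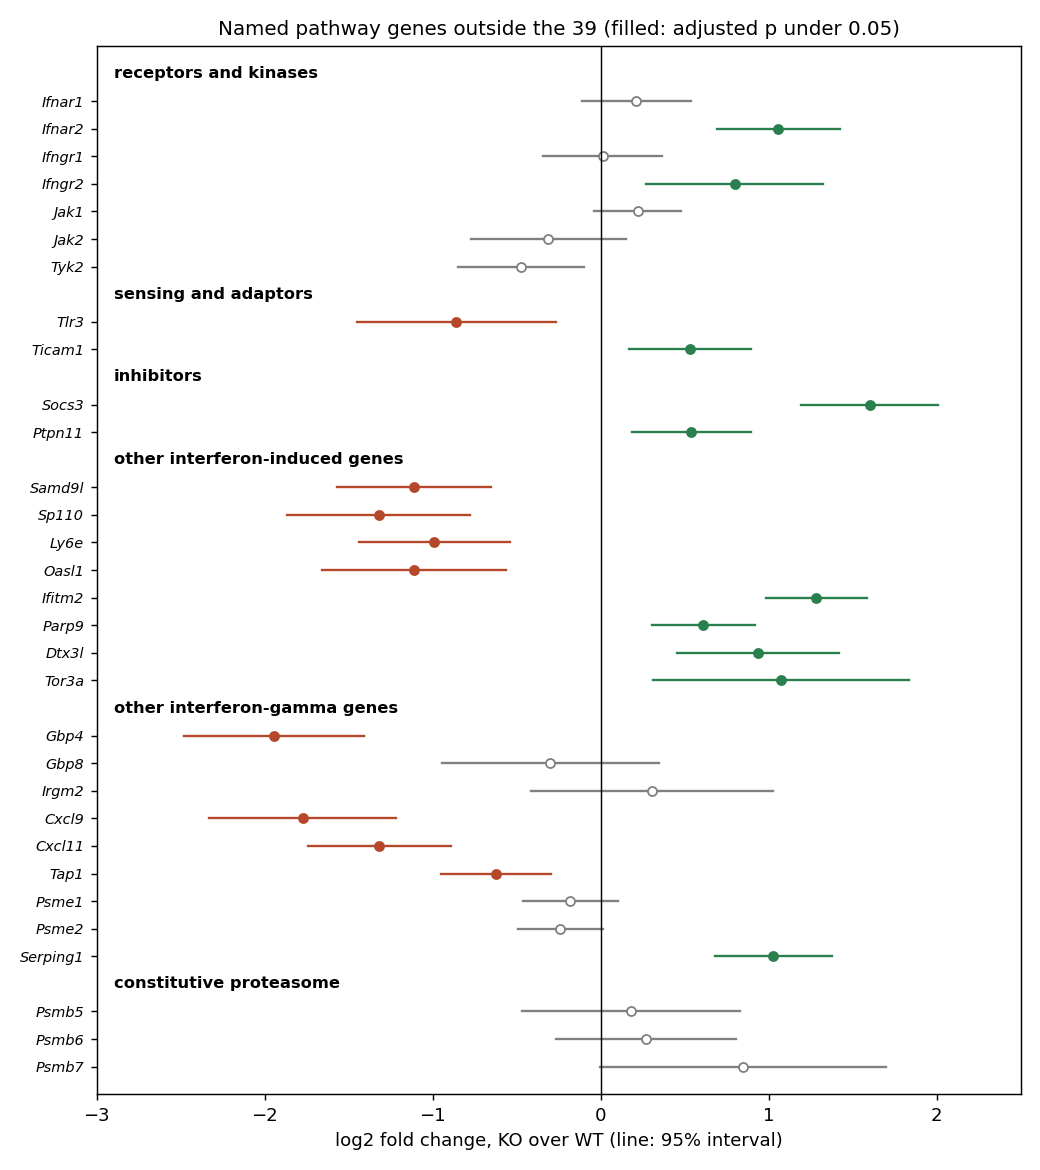
Log2 fold change of KO over WT with its 95% interval (horizontal axis) for named pathway genes outside the 39, from the same edgeR fit with TMM scaling. Filled points are past an adjusted p of 0.05, with Ifnar2, Socs3, Ifitm2 and Serping1 right of 0 and Gbp4, Cxcl9 and Sp110 left of it.

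Markers of other cell types moved with genotype in the same libraries, and in bulk tissue fewer cells of a type and less RNA per cell cannot be told apart. The same test called 10.7% of all genes lower and 10.4% higher. Of 7 tested B cell markers, the most abundant being Ighm, Ighd and Cd22, 6 fell and 0 rose. Summed levels here are over all markers listed, also those below the filter, which for B cells (8 listed) gave 11.03 to 75.1 CPM in KO and 52.4 to 498 CPM in WT. Of 7 tested T and NK cell markers, led by Trbc1, Trbc2 and Klrk1, 4 fell and 0 rose, and the 16 listed summed to 9.06 to 11.3 CPM in KO and 17.3 to 26.4 CPM in WT. For plasmacytoid dendritic cells, a main source of type I interferon, 1 of 7 markers could be tested, Spib, which B cells share, and it fell (summed level 2.12 to 3.62 CPM in KO and 3.37 to 11.7 CPM in WT). The lowest of these WT sums was replicate 4, and the others ran from 5.36 CPM. Of 4 tested conventional dendritic cell markers, Itgax fell and 0 rose, and the 8 listed summed to 15.7 to 33.5 CPM in KO and 19.0 to 25.6 CPM in WT. Kupffer cell markers, led by Clec4f, Cd5l and C1qa, went the other way, with 6 of 10 higher and 0 lower. Their summed level was 162 to 195 CPM in KO and 47.6 to 212 CPM in WT, the highest WT value being replicate 4 and the others reaching 66.5 CPM. Of 8 sinusoidal endothelial markers 5 rose and 0 fell, with 138 to 260 CPM in KO and 90.4 to 188 CPM in WT. The highest WT value was again replicate 4, and the others reached 113 CPM. Of 4 tested markers of monocytes and neutrophils 0 passed in either direction, and Ly6g was at 0 counts throughout. The hepatocyte markers were abundant in every library, at 41382 to 47845 CPM in KO and 50618 to 65174 CPM in WT, with Alb, Tat and Ass1 of 8 lower and 0 higher. The part of these cell types, and of the mitochondrial share, in the fall of the interferon genes was not tested.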

How the data were processed

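The deposited table holds raw gene counts for 8 bulk liver libraries, with no normalization. The submitters' processing notes name cutadapt 4.2, STAR 2.7.10a and the mm39 build. The treatment of reads that fit more than 1 gene is not stated in those sources. Columns were matched to samples by genotype and replicate number. The 39 genes and all other gene and marker lists were chosen with earlier results of these data known. Symbols came from GENCODE M21 (GRCm38), which named 52073 of 56748 IDs and left 4675 without a symbol, and promoter and miRNA sequences came from RefSeq tables of GRCm38.p6. Its coordinates are for these sequences only and were not joined to mm39.

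KO was compared with WT with edgeR 4.0.16 in R 4.3.3 (TMM factors, filterByExpr on genotype, robust quasi-likelihood fit and F test, two-sided, Benjamini-Hochberg over the 13204 genes tested, threshold 0.05). The model held genotype alone, as no label names a batch. Standard errors come from the F statistic, and intervals are 95%. Proteasome ratios used exact permutation tests. Fold changes are KO over WT. Named genes were all 39, a fixed set of pathway genes (receptors, kinases, Socs1, Gbp4, Gbp8, Gbp10, Irgm2, proteasome subunits and Cxcl9) and up to 4 called genes of smallest p per direction from each other pathway list. The rule also names the 3 most abundant markers of a list, printed here for B, T and NK, and Kupffer cells, while Spib, Itgax, Ly6g, Tat and Ass1 were named after their values were seen. Gbp2b is named because values of all Gbp genes are given. No test was made over a list of genes, and some genes that the rule or a list takes are not reported here.

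No pair of libraries of 1 genotype agreed within sampling noise (chi-square per degree of freedom 2.765 to 297). The promoters of 10 of the 39 genes were not analysed here, and the planned comparison of protein sequences was replaced by the share of 50-base windows of the longest transcript found in transcripts of other genes. The fit was checked on simulated counts with planted changes. These had no difference in mitochondrial share between the genotypes, so the check does not cover RNA composition. The permutation test was checked on made-up values of groups that did not overlap. Alternatives were other scalings and filters, DESeq2 1.42.0, limma 3.58.1 voom (also with quality weights), a block for replicate number, mitochondrial genes left out, libraries thinned to 1131446 nuclear counts and each library left out in turn. Figures were drawn with matplotlib 3.10.9.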

Additional observations from a re-analysis of the deposited data

Results flagged for a closer look

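In 9 of the 80 groups of 4 libraries examined, 1 library lay far from the other 3, as judged by its gap to the nearest library divided by the range of the group against Dixon's critical value for 4 samples. Chance alone gives about 1 in 20. In WT, replicate 4 was the library that stood apart in 6 of them. It was high for Irf7 (gap share 0.912, at 50.6 CPM) and Oasl2 (0.918, at 9.56 CPM) and low for Irgm1 (0.878, at 10.7 CPM). It was also high for the log2 ratios of Psmb8 to Psmb5 (0.843, at 1.23), Psmb9 to Psmb6 (0.839, at -1.05) and Psmb10 to Psmb7 (0.861, at 3.22). In KO, replicate 4 was high for Ifih1 (0.912, at 12.2 CPM) and low for Irf7 (0.831, at 12.4 CPM), and replicate 3 was high for Usp18 (0.901, at 3.51 CPM). Irf7 was called lower with each of these libraries left out.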

How the results depend on the processing

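The 14 lower calls were all kept with DESeq2 size factors, upper-quartile factors, a filter of at least 10 counts in 4 libraries, DESeq2, limma-voom (quality weights on or off), mitochondrial genes left out, and without WT replicate 4. Ifit1 and Gbp11 were called under all 19 alternatives. The number of the 39 genes called lower was 2 with library-size scaling, 11 with no filter on low counts (Irf8, Ifi27 and Ifi35 lost), 9 with the replicate block (Irf8, Stat2, Ifi27, Ifi35 and Igtp lost) and 5 after thinning, and ran from 9 to 18 with 1 library left out. After thinning 22 could be tested, of which Irf8, Stat2, Ifi27, Ifi35 and Igtp lost their call, while Ifit3, Gbp3, Gbp6 and Gbp9 could no longer be tested. It was 17 with DESeq2 (Ifit2, Ifit3b and Xaf1 gained) and with quality weights (Isg15, Xaf1 and Rtp4 gained), and limma-voom without weights and leaving out mitochondrial genes each added Xaf1. Among the named genes outside the 39, the block ended the calls of Ifngr2, Tlr3, Ticam1, Ptpn11, Oasl1, Parp9, Tor3a and Tap1. Thinning ended those of Tlr3, Ticam1, Ptpn11, Cxcl11 and Tap1, and no filter those of Tlr3 and Ticam1. Library-size scaling ended those of Gbp4 (edgeR adjusted p = 0.0668), Cxcl9 (0.107), Cxcl11, Tap1, Samd9l, Sp110, Ly6e and Oasl1. It also ended those of Parp9, Dtx3l, Tor3a, Ifngr2, Tlr3, Ticam1 and Ptpn11. Among genes not called, leaving out WT replicate 4 also moved Parp14 to -0.13, Psmb6 to 0.061, Irgm2 to 0.13 and Gbp8 to -0.45. Over all 13204 genes tested, lower calls were 124 with library-size scaling, 2552 with quality weights and 624 with the block. Higher calls under these settings were 561, 2432 and 643. After thinning, 841 were lower and 782 higher of 9220 tested. DESeq2 called 1731 lower and 1761 higher of 15990. With no filter, 1150 were lower and 1392 higher of 25937. Limma-voom without weights gave 1519 and 1521 of 13204, and leaving out mitochondrial genes 1457 and 1336 of 13339. With 1 library left out, lower calls ran from 728 to 2407 and higher calls from 760 to 2446, of 13179 to 13777 tested. Other interferon-induced genes called lower were 0, 3 and 4 with library-size scaling, the block and thinning, and 5 to 18 with 1 library left out, and called higher 1 with library-size scaling, 2 with the block and 3 to 7. After thinning, the differences of Psmb9 to Psmb6 and Psmb10 to Psmb7 were -1.195 and -1.62 with an adjusted exact p of 0.0857. The cause of these moves was not tested, except that thinning leaves fewer genes to test.

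With library-size scaling, which shifts the median of all genes to 0.544, the sign turned for Ifih1 (0.36), Ddx58 (0.46), Irf1 (0.43), Irf9 (0.22), Ifi27 (0.082), Ifi35 (0.19), Oas1a (0.039), Mx2 (0.49), Usp18 (0.53), Bst2 (0.34), Rtp4 (0.070), Parp14 (0.34), Gbp2 (0.29), Psmb8 (0.49), Psmb10 (0.31), Jak2 (0.26), Tyk2 (0.16), Gbp8 (0.19), Psme1 (0.35) and Psme2 (0.32). Genes near 0 also turned elsewhere, among them Ifih1 with DESeq2 (0.027) and the block (0.068), Ddx58 (0.11) and Gbp8 (0.10) after thinning, Usp18 (0.15), Irgm1 (-0.032) and Psmb5 (-0.031) with quality weights, and Ifngr1 with the block (-0.00127). With 1 library left out, the value ran from -0.34 to 0.080 for Ifih1, -0.14 to 0.083 for Ddx58, -0.22 to 0.090 for Mx2, -0.29 to 0.12 for Usp18, -0.30 to 0.031 for Bst2, -0.055 to 0.16 for Irgm1, -0.20 to 0.063 for Psmb8, -0.091 to 0.089 for Ifngr1 and -0.051 to 0.36 for Psmb5. The deviations of same-numbered libraries from their genotype means were not positively correlated (-0.256, -0.0394, -0.0713 and -0.126). These values cannot show whether such libraries share a batch, because WT replicate 4, which stood apart, enters every WT deviation through the mean. No label says what a replicate number stands for. The replicate block left 9 of the 14 genes called. At the depth of WT replicate 4 a gene under 1.69 CPM could not be told from 0.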
